A study of Mus musculus with 6 samples.

Results

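Genes that set how fast mRNAs are degraded were followed in irradiated pre-B cells. They are Zfp36, Zfp36l1 and Zfp36l2, Btg1, Btg2, Btg3, Tob1 and Tob2, and the endonuclease gene Zc3h12a and the deadenylase gene Cnot8. These 10 genes were grouped under AU-rich element binding and deadenylation. On the Affymetrix mouse array used, 22 of 45037 probe sets (groups of short probes that give 1 signal each) carry 1 of these names alone, and they cover 9 of the 10 genes. The annotation of the array's platform assigns the probe set of Btg3 to a further gene as well, so that no value is given for Btg3. The study asked how developing B cells respond to genotoxic double strand breaks, with 3 WT pre-B cell lines derived independently of each other from mice. All 6 samples shared transformation with the v-Abl kinase, an Eμ-Bcl2 transgene, which counters apoptosis in B lineage cells, and 48 hours in 3 μM STI-571 (imatinib), which inhibits v-Abl and holds the cells in G1. Each line gave 1 mock-irradiated sample (0 Gy) and 1 sample exposed to 1 Gy of γ-rays at 0.72 Gy per minute, both collected 2 hours later. The labels give neither the strain nor the age of the mice, and the transformed, arrested lines with their transgene stand for pre-B cells here.

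Shortening of the poly(A) tail by the CCR4-NOT deadenylase complex is usually the first step of mRNA decay. Zfp36 (tristetraprolin) and its relatives Zfp36l1 and Zfp36l2 bind AU-rich elements in the 3' ends of short-lived mRNAs through paired CCCH zinc fingers and recruit CCR4-NOT. BTG and TOB proteins bind the catalytic CAF1 subunit, encoded by Cnot7 or Cnot8, and TOB proteins also bind the poly(A) binding protein. Zc3h12a (Regnase-1) is an endonuclease that cleaves stem-loops in mRNAs of inflammatory genes. In developing B cells Zfp36l1 and Zfp36l2 are known to limit cell cycle mRNAs and to favour quiescence before V(D)J recombination, Btg2 is a classical p53 target, and Zfp36 is an immediate early gene.

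Median signals of the arrays were 51.6 to 59.4 (arbitrary units), and 41.7% to 43.8% of probe sets reached a signal of 100. Of 9 pre-B cell markers, 8 were on the array and all 8 reached 100 (summed signal 75332 to 84671 at 0 Gy and 57371 to 79531 at 1 Gy, with Rag1 and Rag2 called lower). None of the 4 T cell, 2 erythroid and 4 stromal markers measured reached 100 on any array. Among 5 myeloid markers only Itgam did, and it rose from 130 to 163 across the mock arrays to 234.6 to 342 after 1 Gy, while Csf1r, Lyz2, Elane and Mpo stayed under 100. As a measure of RNA quality, the beta-actin control probe sets gave a 3'-to-5' ratio of 1.45 ± 0.05 (SD, n = 3) at 0 Gy and 1.32 ± 0.06 at 1 Gy. The ratio was lower in 3 of 3 lines. A two-sided exact permutation test that ignored the pairing by line gave p = 0.1, and 3 against 3 cannot give less. The part of RNA quality or of Itgam-expressing cells in the changes below was not tested.

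Zfp36l1 and Zc3h12a rose after 1 Gy, Tob1 and Tob2 fell, and the remaining 5 measured members did not pass the test by their brightest probe set. A call is an adjusted p under 0.05 from limma, which was fitted with dose and cell line (the block) to all 21762 probe sets with a signal of 100 or more on any array. The cell line of an array was taken from its replicate number, since the sample titles do not name the lines. A gene is represented by its brightest probe set. Of 9 measured members, 2 were called higher, against 6.61% of 9678 genes, and 2 lower, against 14.7%, so that 4 of 9 were called where 21.3% of all genes were. By probe set, 17 of 22 were tested, 4 were called higher, against 6.78% of all tested, and 2 lower, against 11.5% (18.3% of all in either direction). Without the block, 3 were called, both of Zfp36l1 and that of Zc3h12a, all higher, while 1.93% of all probe sets were called higher, 2.55% lower and 4.48% in either direction. The other 5 stayed under 100 on all 6 arrays, with a highest signal of 94.9. The median log2 fold change was -0.21 over the 9 members and -0.11 over all genes. Since RNA was taken from whole cultures, fewer cells that express a gene and less RNA per cell cannot be told apart, nor can altered synthesis and altered decay of an mRNA.

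**Figure D1:**
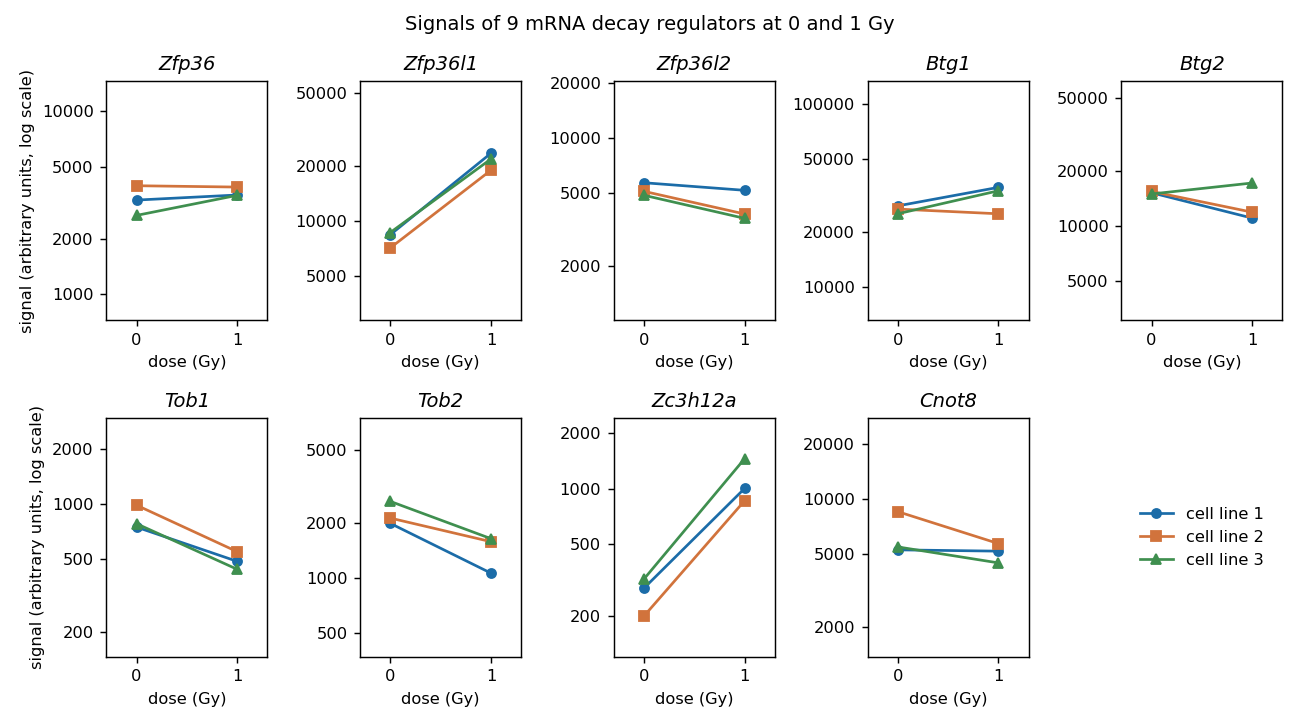
Signals of the brightest probe set of 9 members (vertical axes, arbitrary units on log scales that each span the same ratio) at 0 and 1 Gy (horizontal axes), where each line connects the mock and irradiated array of 1 cell line. All 3 rise for Zfp36l1 and Zc3h12a and all 3 fall for Tob1 and Tob2, whereas lines of Zfp36, Btg1 and Btg2 differ in direction.

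The promoters of the 4 members that changed are printed first, to show the sequence just upstream of the genes whose mRNA moved. Each is the 250 bases before the transcription start in RefSeq (GRCm38.p6), 5' to 3' on the strand of the gene. Zfp36l1 is read from chr12:80113014-80113263 (minus strand), Zc3h12a from chr4:125127882-125128131 (minus strand), Tob1 from chr11:94211204-94211453 (plus strand) and Tob2 from chr15:81858327-81858576 (minus strand). Capitals mark a match to the p53 half-site.
Zfp36l1: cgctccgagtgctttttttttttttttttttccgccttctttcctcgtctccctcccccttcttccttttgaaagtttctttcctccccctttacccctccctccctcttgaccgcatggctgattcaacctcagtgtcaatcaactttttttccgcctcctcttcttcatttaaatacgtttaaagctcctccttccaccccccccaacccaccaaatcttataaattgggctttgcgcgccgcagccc
Zc3h12a: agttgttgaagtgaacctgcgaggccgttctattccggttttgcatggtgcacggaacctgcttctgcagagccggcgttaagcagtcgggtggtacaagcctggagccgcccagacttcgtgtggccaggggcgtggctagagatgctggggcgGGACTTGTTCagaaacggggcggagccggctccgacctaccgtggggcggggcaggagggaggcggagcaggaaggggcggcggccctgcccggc
Tob1: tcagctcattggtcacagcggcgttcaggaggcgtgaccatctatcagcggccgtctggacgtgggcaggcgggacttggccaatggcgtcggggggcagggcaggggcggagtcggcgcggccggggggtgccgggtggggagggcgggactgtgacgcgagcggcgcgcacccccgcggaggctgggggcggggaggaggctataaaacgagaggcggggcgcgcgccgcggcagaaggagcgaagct
Tob2: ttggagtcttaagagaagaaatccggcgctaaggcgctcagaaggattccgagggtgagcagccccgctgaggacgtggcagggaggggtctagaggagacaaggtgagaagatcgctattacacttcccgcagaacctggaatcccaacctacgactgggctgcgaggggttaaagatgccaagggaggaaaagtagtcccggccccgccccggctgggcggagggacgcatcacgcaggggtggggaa
The Zc3h12a window holds 1 p53 half-site, GGACTTGTTC, from 95 to 86 bases before the start, and a complete p53 element would need 2 such half-sites side by side. The other 3 windows hold no match, and none of the 4 holds the NF-κB consensus. Both motifs were searched on both strands, and of 32851 windows of the same length 7.13% hold a p53 half-site and 7.25% the NF-κB consensus. GC content was 48.4% in Zfp36l1, 66.4% in Zc3h12a, 73.6% in Tob1 and 60.4% in Tob2, beside a median of 52.4% over all windows. A match is a description of letters, and its absence says only that these letters are not in the window. Windows were found for 9 of the 10 members.

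Among the AU-rich element binding proteins, Zfp36l1 rose and its relatives did not pass the test. The brightest Zfp36l1 probe set (1450644_at) had signals of 8414, 7127 and 8650.1 in cell lines 1, 2 and 3 at 0 Gy and, after 1 Gy, of 23463, 18953 and 21822. The lowest irradiated array therefore lay above the highest mock array by a wide margin, and the lines were close to each other at both doses. The log2 fold change was 1.41 (standard error 0.11, adjusted p = 0.0110 from limma), a 2.65-fold rise, and the 3 lines gave 1.48, 1.41 and 1.34. The second probe set (1422528_a_at) rose from 2190.0, 1356 and 1824 to 9628, 10107 and 9312, 5.51-fold or 2.46 on the log2 scale (standard error 0.19, adjusted p = 0.0108 from limma). Both probe sets separate the doses completely, but they differ in the size of the rise. Without the block, adjusted p was 0.0188 and 0.0103. With any 1 line left out, they remained between 0.0363 and 0.0470 (limma).

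Zfp36, the founding member of the family, had signals of 3280 (line 1), 3929 (line 2) and 2705 (line 3) at 0 Gy and 3497, 3863 and 3482 at 1 Gy. The doses overlapped, 2 lines were higher and 1 lower, and the log2 fold change was 0.14 (standard error 0.13, adjusted p = 0.478 from limma). Zfp36l2 had signals of 5668, 5087 and 4840.2 at 0 Gy and 5152, 3824 and 3620.0 at 1 Gy. It was lower in 3 of 3 lines with overlapping doses, and its mean log2 change, -0.32 with its 3 lines at -0.14, -0.41 and -0.42 (standard error 0.13, adjusted p = 0.143 from limma) passed only with a trend in the variance prior (0.0489). Its other 2 probe sets did not exceed 39.7 on any array.

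Zc3h12a gave the largest log2 fold change of the members by their brightest probe sets. Signals were 286, 201.0 and 320.3 at 0 Gy and 1002, 859 and 1458 at 1 Gy in lines 1, 2 and 3. The doses were far apart, and line 3 was highest and line 2 lowest at both doses. The log2 fold change was 2.03 (standard error 0.13, adjusted p = 0.0103 from limma), a 4.09-fold rise, and the lines gave 1.81, 2.10 and 2.19. Without the block, adjusted p was 0.0261, and with any 1 line left out it was 0.0348 to 0.0427 (limma). A second probe set (1443993_at) stayed at 94.9 or below and was not tested. Among 9669 other genes, the patterns most like that of Zc3h12a over the 6 arrays were those of Ifngr2, a subunit of the interferon gamma receptor (Pearson r = 0.998), the proapoptotic BH3-only gene Bcl2l11 (r = 0.998) and Inf2, a formin (r = 0.997). Each r rests on 6 log2 signals that share the difference between the doses, and 225 genes reached 0.95.

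Both TOB genes fell. Tob1 had signals of 749.7, 988 and 783 at 0 Gy and 487, 550.1 and 441 at 1 Gy. All irradiated arrays lay below all mock arrays, and the mean log2 change was -0.77 (standard error 0.12, adjusted p = 0.0235 from limma), or 58.8% of the mock signal. Lines 1, 2 and 3 fell by 0.62, 0.84 and 0.83 on the log2 scale. Its second probe set did not exceed 38.4. Tob2 had signals of 1990.1, 2127 and 2625 at 0 Gy and 1064, 1580.2 and 1642 at 1 Gy by its brightest probe set (1448666_s_at), again without overlap. The log2 fold change was -0.67 (standard error 0.14, adjusted p = 0.0419 from limma), or 62.9% of the mock signal, with line 2 falling least (-0.43) and line 1 most (-0.90). Of its other 3 tested probe sets, 1448667_x_at and 1417309_at were lower in 3 of 3 lines without overlap but did not pass (log2 fold changes of -0.47 and -0.52, adjusted p = 0.0585 and 0.0719 from limma). They passed under 4 and 2 of 19 alternatives, at their lowest with a trend in the variance prior (0.0111 and 0.0173). The third, 1417310_at, overlapped between doses (-0.28, adjusted p = 0.468) and turned to 0.058 without line 1. The calls of the TOB genes depended on the pairing of the arrays and on having all 3 lines. Their mean fold changes could not depend on the pairing, as complete pairs give the same mean without it. Without the block, adjusted p was 0.0670 for Tob1 and 0.151 for Tob2, and with any 1 line left out it was 0.0661 to 0.0888 and 0.0715 to 0.131 (limma). After scaling to a common median, Tob2 had an adjusted p of 0.0548.

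The BTG genes gave mixed readings. Btg1, an antiproliferative gene of resting lymphocytes, was among the brightest genes on the arrays, whose highest signals of any probe set were 34784 to 49377. Its brightest probe set (1426083_a_at) had signals of 27823, 26734 and 25195 at 0 Gy and 35140.1, 25191 and 33664 at 1 Gy. The doses overlapped, line 2 was lower and the other lines higher, and the log2 fold change was 0.22 (standard error 0.15, adjusted p = 0.341 from limma). A second probe set (1437455_a_at) was higher in 3 of 3 lines, from 11010 to 14837 at 0 Gy to 15663 to 17278 at 1 Gy, without passing (0.31, adjusted p = 0.230). The third (1442018_at) rose from 7836, 5561 and 7159 to 12474, 9929 and 12477. There the doses did not overlap and the lines were close in their change, 0.67, 0.84 and 0.80 on the log2 scale, with a mean of 0.77 (standard error 0.11, adjusted p = 0.0219 from limma). Btg1 readings thus differ between probe sets, and the call of the third was lost without the block (0.0825) and with any 1 line left out (0.0674 to 0.0816). Whether the brightest probe set was near the upper limit of the scanner was not tested.

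Btg2 had signals of 15243, 15487 and 15007 at 0 Gy and 11072, 11930.2 and 17230.1 at 1 Gy. The lines parted after irradiation, with lines 1 and 2 lower and line 3 higher, so that the log2 fold change was -0.21 (standard error 0.18, adjusted p = 0.428 from limma). Its second probe set (1448272_at) showed the same split, from 6605, 7770.5 and 7061 to 5808, 5542 and 7276 (-0.21, adjusted p = 0.364).

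Cnot8, a catalytic deadenylase subunit, had signals of 5267, 8522 and 5466 at 0 Gy and 5182, 5699 and 4469.8 at 1 Gy. Line 2 stood above the other lines at 0 Gy, all 3 lines were lower after 1 Gy with overlapping doses, and the log2 fold change was -0.30 (standard error 0.15, adjusted p = 0.230 from limma). Another Cnot8 probe set gave -0.14 (adjusted p = 0.467), lower in 2 of 3 lines.

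**Figure D2:**
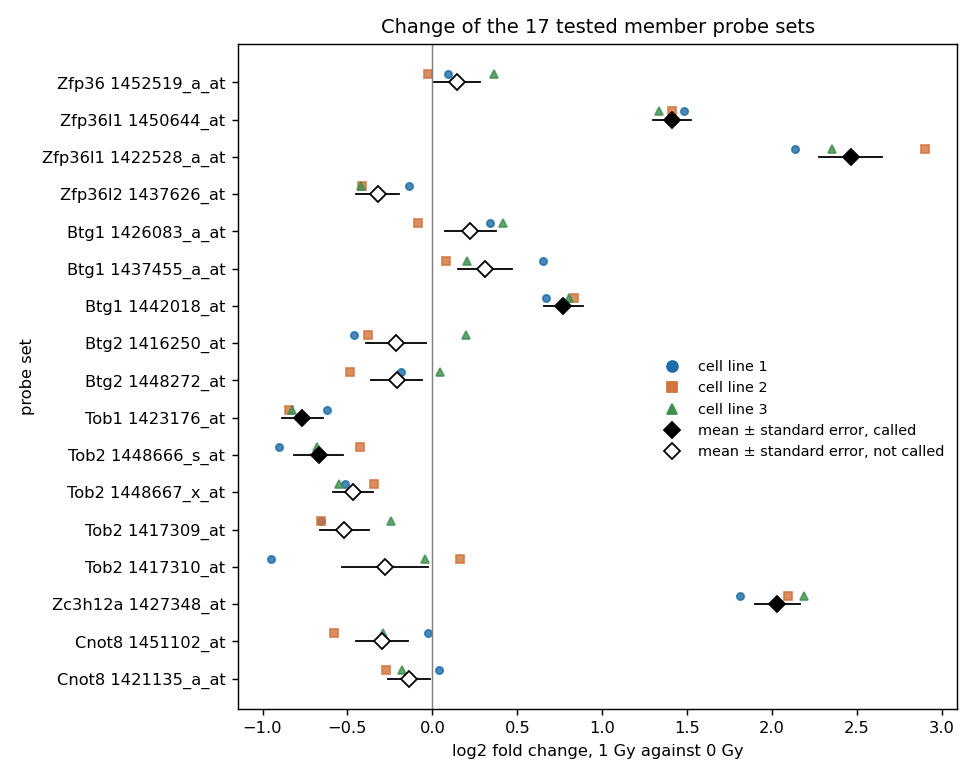
Log2 fold changes of the 17 tested member probe sets (horizontal axis), 1 Gy against 0 Gy, as the mean with its standard error (diamonds, filled where called) and in each of the 3 cell lines (coloured symbols). Both Zfp36l1 probe sets and Zc3h12a lie above 1, Tob1 and all 4 Tob2 probe sets lie below 0, and of 3 Btg1 probe sets 1 is called.

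Over the 17 tested probe sets, doses did not overlap in 5 that were higher, against 12.8% of all tested probe sets, and in 4 that were lower, against 17.1%. These were both of Zfp36l1, 1 of Zc3h12a and 2 of Btg1 among the higher, and Tob1 and 3 of Tob2 among the lower. Within each of the 5 genes with more than 1 tested probe set, all of these had mean changes of the same sign. The plot of log2 fold changes by probe set shows the shared signs.

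Other genes of mRNA decay were taken from 7 lists, of deadenylases, decapping and exosome factors, RNA binding regulators, microRNA effectors and nonsense-mediated decay. Of 85 such genes 74 were tested, 4 were called higher and 7 lower, beside 6.61% and 14.7% of all genes, and the median log2 fold change was 0.006. None of 9 tested CCR4-NOT subunits was called by limma, with 1 higher and 1 lower at an unadjusted p under 0.05. Their log2 fold changes ran from -0.40 (Cnot6l, adjusted p = 0.0752) to 0.58 (Cnot4, adjusted p = 0.129), and Cnot7, the paralogue of Cnot8, stood at 0.26 (adjusted p = 0.335). Without the block, 1 gene was called higher, Cpeb4, and 1 lower, Exosc5.

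Of all genes, 6.61% were called higher and 14.7% lower, and the counts of the lists below were not tested against these shares. Among 7 genes listed as other deadenylases and poly(A) binding proteins, Noct rose and Parn fell. Noct (nocturnin), related in sequence to the CCR4 deadenylases, had signals of 244, 235 and 105 at 0 Gy and 445, 590.3 and 338 at 1 Gy (log2 fold change 1.29, adjusted p = 0.0219 from limma). Parn, a poly(A)-specific ribonuclease, went from 824 ± 85.3 (SD, n = 3) to 538 ± 62.6 (-0.61, adjusted p = 0.0324). Of 17 tested genes of decapping and 5'-to-3' decay, only Dcps, the scavenger decapping enzyme, was called, and it fell by 0.73 on the log2 scale (adjusted p = 0.0285). Of 16 tested genes of the exosome and its partners, only Exosc5, a subunit of the exosome ring, was called. It fell from 741, 701 and 781 to 226, 280.3 and 339 (-1.41, adjusted p = 0.0147 from limma). All 5 tested genes of nonsense-mediated decay lay between -0.060 and 0.35 and none was called, nor had any an unadjusted p under 0.05 (limma).

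Of 13 tested regulators that bind mRNA, Cpeb4 and Arid5a rose, Zc3h12d fell and 10 did not pass, where 21.3% of all genes were called in either direction. Cpeb4, a cytoplasmic polyadenylation element binding protein, went from 1512, 2162 and 2201 to 4528, 4772 and 5072 (1.31, adjusted p = 0.0148 from limma). Arid5a, known to stabilise mRNAs that Zc3h12a cleaves, had a log2 fold change of 0.57 (adjusted p = 0.0469). Zc3h12d, a relative of Zc3h12a, fell from 3972 ± 710.3 (SD, n = 3) to 1771 ± 525 (-1.20, adjusted p = 0.0173), opposite to Zc3h12a in all 3 lines. Of 7 microRNA effectors, the Argonaute gene Ago2 rose (log2 fold change 0.71, adjusted p = 0.0326) while Ago4 fell by 1.12, Tnrc6b by 0.62 and Ago1 by 0.56 (adjusted p = 0.0269, 0.0426 and 0.0468), with a median of -0.32. That is 1 called higher and 3 lower, beside 6.61% and 14.7% of all genes, and all 4 calls were lost without the block (adjusted p = 0.0766 to 0.233 from limma).

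**Figure D3:**
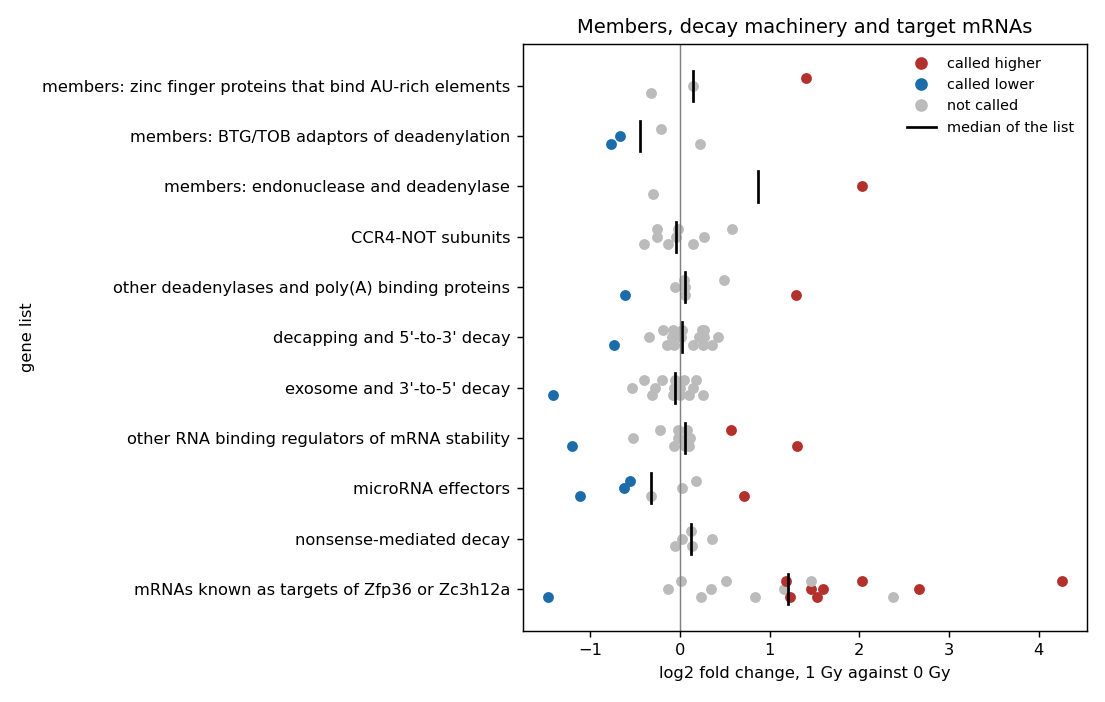
Log2 fold changes (horizontal axis) of the tested genes of each list (vertical axis), 1 point per gene by its brightest probe set, with the median as a vertical bar and called genes in colour. The CCR4-NOT subunits and nonsense-mediated decay genes are all uncalled. Decapping and exosome lists hold 1 called gene each and the remaining machinery lists more than 1, where 21.3% of all genes were called. The known target mRNAs run from -1.47 for Tfrc to 4.26 for Ier3, which stands at 2.55 with signals under 100 set to 100.

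Of 28 mRNAs known as targets of Zfp36 or Zc3h12a, 18 were tested, of which 8 were called higher and 1 lower, beside 6.61% and 14.7% of all genes. They include genes induced by NF-κB and p53, so that the list is not defined by decay alone. It was also chosen with earlier results of these data known. Of the 18, 4 reached 100 only on irradiated arrays (Ccl3, Ier3, Ccnd1 and Plk3) and could not have entered the test without being brighter there. The median log2 fold change was 1.20, and 0.36 with signals under 100 set to 100, where 7 were called higher and 1 lower. Among the 6 called targets with the largest changes, the early response gene Ier3 went from 24.8, 24.0 and 48.9 to 560.2, 547 and 661 (4.26, adjusted p = 0.00919 from limma), and since its mock signals are all under 100, the log2 fold change was 2.55 with the floor of 100. Plk3, a stress-responsive kinase, was below 100 on every array but the irradiated one of line 3, and its call (2.67, adjusted p = 0.0349) was lost with the floor of 100 (0.13, adjusted p = 0.511). Dusp1, a MAP kinase phosphatase and classical Zfp36 target, went from 133, 78.2 and 91.1 to 365, 379 and 469 (2.03, adjusted p = 0.0148). Nfkbiz (IκBζ), a known Zc3h12a target, rose from 846, 1389 and 1501 to 2449.6, 3515 and 5617 (1.59, adjusted p = 0.0128), and Pim1, a survival kinase, from 5249 ± 1001 (SD, n = 3) to 15266 ± 3685 (1.53, adjusted p = 0.0151). The transferrin receptor gene Tfrc, another known Zc3h12a target, fell from 9657, 8445 and 7261 to 3163, 2850.4 and 3119 (-1.47, adjusted p = 0.0122 from limma). Without the block, 4 of the 8 rises (Ier3, Pim1, Dusp1 and Rel) and the fall of Tfrc were called. Targets that did not pass include Tnf, the classical Zfp36 target (116, 6.55 and 36.2 at 0 Gy and 96.0, 38.5 and 157 at 1 Gy, adjusted p = 0.154), Mcl1 (-0.14, adjusted p = 0.545) and Bcl2 (0.0095, adjusted p = 0.972), of which the lines also carry a transgene. These 3 were chosen after their values were seen.

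**Figure D4:**
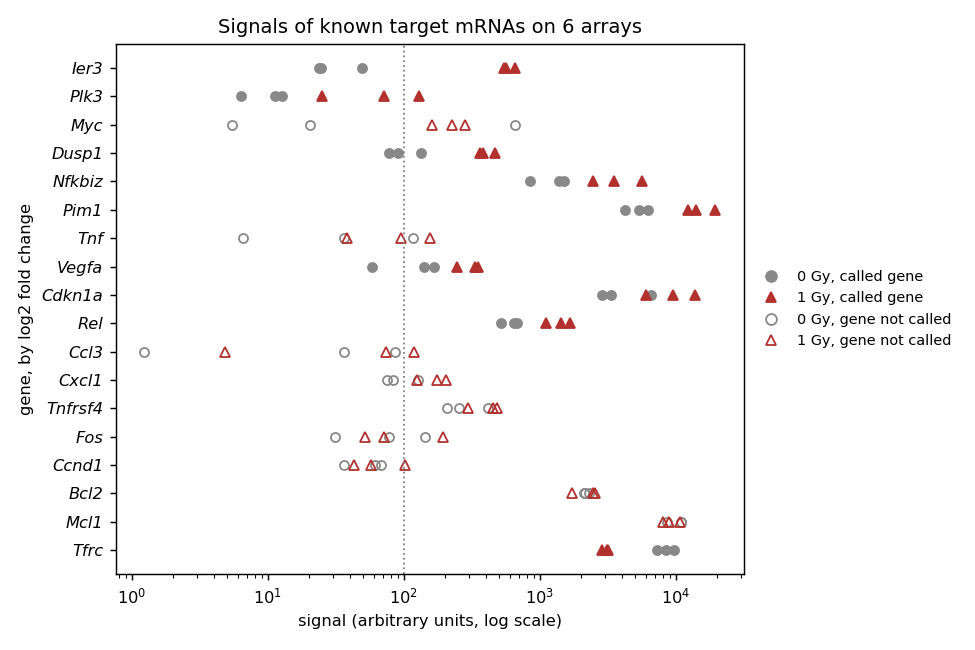
Signals on the 6 arrays (horizontal axis, log scale of arbitrary units, with 100 as a dotted line) of the 18 tested known target mRNAs (vertical axis, ordered by log2 fold change), with circles for 0 Gy and triangles for 1 Gy, filled where the gene was called. Irradiated arrays lie to the right of mock arrays for Ier3, Dusp1, Nfkbiz and Pim1 and to the left for Tfrc, while Mcl1 and Bcl2 overlap.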

How the data were processed

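RNA from 3 mock-irradiated and 3 irradiated samples (cell lines 1 to 3 by the replicate numbers of the labels) was hybridised to 6 Affymetrix mouse arrays. The authors deposited 1 linear intensity per probe set. MAS5 is the tool listed in the submitters' processing notes. Each array has a mean of 500 without its lowest and highest 2% of signals. The RMA and quantile normalization of the study's methods are not part of these values. Control probe sets (64) were left out, signals under 1 were set to 1, and log2 values of 21762 of 45037 probe sets, those that any array measured at 100 or more, were tested with limma (version 3.58.1, R 4.3.3), with dose and cell line as factors and Benjamini-Hochberg adjustment. The number of arrays limits the precision. With the block, differences in level between lines are removed. P-values then rest on how the change after irradiation varies between the 3 lines, with 2 residual degrees of freedom beside limma's prior.

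The replicate numbers were taken to mark the lines. Sample titles hold these numbers but no name of a line, so that the pairing by line is inferred. Deviations from the group means correlated at 0.668 to 0.781 for arrays with the same number (3 pairs), and the arrays were treated as pairs. The others (6 pairs) gave -0.495 to -0.053. Deviations from a group mean cancel out within the group, so that positive values for the same numbers force negative ones among the others. The negative values are therefore no separate evidence of pairing. Without the block, 419 probe sets were called higher and 556 lower, and with it 1475 and 2499. Platform annotation gave 1 symbol to 34945 probe sets, several to 932 and none to 9160, and only the first kind was named. Members and lists were chosen with earlier results of these data known. The text names every member, up to 6 called genes of each list with the largest changes, and the 3 genes most like the called member that changed most. Cnot4, Cnot6l, Cnot7 and Rel, the markers and the genes marked in the text fall outside it and were picked with their values in view. Of 18193 genes named on the array, 9678 had a tested probe set. Alternatives were no block, other filters, normalizations and floors, a variance trend, the methods' t-test, the mean over probe sets of a gene, and leaving out lines or arrays.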

Additional observations from a re-analysis of the deposited data

How the results depend on the processing

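The rises of Zfp36l1 and Zc3h12a kept their direction under all 19 alternatives run, and the 9 members kept theirs by the brightest probe set. Where only the test or the filter changed (no block, other filters, a variance trend, the methods' t-test), the log2 fold change could not move. The floor of 100 also left these brightest signals unchanged. Direction was open only under other normalizations, with 16 added to each signal, and with arrays or lines left out. Reversals were seen only in uncalled probe sets. With arrays or lines left out, log2 fold changes of Tob2 1417310_at ran from -0.50 to 0.058 (without replicate 1) and of Cnot8 1421135_a_at from -0.29 to 0.021 (without the block and the mock array of replicate 2).

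The replicate block (pairing by cell line) decided most calls. With no replicate block, 419 probe sets were called higher and 556 lower, members higher stayed at 2 and lower came to 0, decay machinery had 1 and 1, and target mRNAs 4 higher. With no filter on dim probe sets limma called 0 of all probe sets higher and 0 lower (6968 at an unadjusted p under 0.05), and therefore 0 members, decay machinery genes and targets. With a variance trend, 2400 probe sets were called higher and 3721 lower, 7 machinery genes higher and 10 lower, and 2 members higher and 3 lower. The methods' t-test at their thresholds, an unadjusted p of 0.05 and a 1.5-fold change, called the same member probe sets of the 17 as the main fit. After Benjamini-Hochberg adjustment, this t-test gave 172 and 180 probe sets, 1 member higher and 0 lower, 0 and 0 machinery genes, and 1 target higher. After scaling to a common median 2 members were higher and 1 lower. By the mean over a gene's probe sets 3 members were higher and 1 lower, and 6 machinery genes higher and 9 lower.

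Leaving out lines with the block, or single arrays without it, gave 0 to 453 probe sets higher and 0 to 565 lower, 0 to 2 members higher and 0 lower, 0 to 2 machinery genes higher and 0 to 2 lower, and, of the targets, 0 to 8 higher and 0 to 1 lower. Both members that rose were called without any 1 line. Without single arrays and the block, log2 fold changes of Zfp36l1 (brightest probe set) stayed at 1.32 to 1.49 and of Zc3h12a at 1.81 to 2.20, with adjusted p of 0.0575 to 0.0858 and 0.0667 to 0.0986. The cause was not tested. Dim genes are limited by signal over background.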
